A study of Mus musculus with 2 samples.

Results

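Fam20c, the kinase that phosphorylates secreted proteins inside the Golgi, was followed through every cell of 1 single-cell RNA library of osteal macrophages (Omacs). It is 1 of 32285 genes in the deposited counts. The gene was chosen by its measured ratio of OVX to sham over all cells, and because the ratios within stages come from the same contrast, all of them are given here as descriptions with no test.

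The cells were isolated from bone of ovariectomized (OVX) and sham-operated control mice 4 weeks after surgery. Both were 1 pool per condition, marked with hashtag 1 for OVX and hashtag 2 for sham and captured together in 1 run of the 10x 3′ kit, which counts each RNA molecule once by its unique molecular identifier (UMI). The submitters gave 1037 OVX and 1084 sham cells as loaded, and no drug or other treatment was given to either pool. With 1 pool per condition the difference between conditions and the difference between pools cannot be told apart, and intervals below cover counting error only.

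Fam20c adds phosphate to serines of proteins on their way out of the cell. Its known targets include osteopontin (Spp1), other acidic matrix proteins of bone and tooth, and the phosphate hormone FGF23, and its loss disturbs mineralization. Its relatives differ in activity, since Fam20a lacks kinase activity and assists Fam20c, while Fam20b phosphorylates a sugar in the linker of proteoglycans.

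The library held 2349 barcodes with 17681092 UMIs, a median of 4387 and a range from 500 to 141565 per barcode. The hashtag counts assigned 1059 cells to OVX (median 4812 UMIs) and 981 to sham (median 3704 UMIs), while 78 barcodes passed the cutoff for both hashtags and 231 for neither. Clustering gave 6 clusters, named here by leading genes: a cycling cluster (384 cells, led by Hist1h1b, Top2a and Mki67, with the granule genes Ltf and Camp), a Retnlg cluster (469), a stefin cluster (606, led by Retnla, Stfa2 and Cstdc5), a Ccl4 cluster (618), an Arg1 cluster (62) and a stromal cluster (210, led by Gng11, Saa2 and Prrx1). Fam20c was not among the 2000 variable genes that shaped these clusters. The cell label of the submitters is macrophage, but in the first 4 clusters the 8 neutrophil markers (S100a8, S100a9 and others) summed to between 168911 and 308366 UMIs per 1000000 (CPM), whereas the 9 macrophage markers summed to between 58.1 and 98.0 CPM, most of it Cd68. C1qc had no UMI at all, C1qa and C1qb had a UMI in 1 cell each, and Adgre1, which encodes F4/80, was found in 47 cells. These 4 clusters are called neutrophil-like below.

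Fam20c (ENSMUSG00000025854) lies on the plus strand of mouse chromosome 5 at positions 138754514 to 138810077 in GRCm38, the assembly behind the mm10 reference of the deposited counts. GENCODE lists 6 transcripts, of which 1, with 10 exons, codes for protein, and no other annotated gene overlaps the locus. A RefSeq start site lies at position 138755081, inside the first exon of the coding GENCODE transcript, so the window around it counts as a promoter in one annotation and as a 5′ untranslated region in the other. In the 300 bases around the RefSeq start (250 before and 50 after it, chr5:138754831-138755130, GRCm38.p6, plus strand), 80.7% of the bases were G or C against a median of 52.7% over 32851 mouse windows of the same kind, and CG occurred 47 times against a median of 7. Short promoter motifs were searched on both strands, and the only matches lay within 30 bases of each other, at chr5:138755008-138755037, ending 44 bases before the RefSeq start. That stretch is shown because it carries every match found, with the matched letters in capitals.
Fam20c, 5′ to 3′ on the plus strand: CCAATctgcgggcgcTGACGcgggGGGCGG
The capitals mark a CCAAT box (CCAAT, found in 37.4% of all windows), the core of the cyclic AMP response element (TGACG, 20.8%) and a GC box (GGGCGG, 35.7%), which do not overlap. The window held no TATAAA (13.6% of windows), no C/EBP motif TTGCNNAA (10.8%), no AP-1 site TGANTCA (7.81%), no Ets core CCGGAAG (8.86%) and no GGTCA, the core of the estrogen response element (40.5%). The full element, GGTCA and its complement TGACC with 3 bases between, was in 0.0700% of the windows and not in this one. These are matches of letters only, and nothing about the binding of any factor follows from them.

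Fam20c ranked 2024 by UMIs among the 18802 genes that had any, with 1187 UMIs in 601 of 2349 cells (25.6%, Clopper-Pearson 95% interval 23.8% to 27.4%) and a level of 67.1 CPM. Of the cells that carried it, 316 had 1 UMI, 150 had 2 and 135 had 3 or more. The 5 cells with the most Fam20c UMIs held 59 of them, or 4.97%, and the highest, with 24, was a stromal OVX cell of 90894 UMIs. The level therefore did not rest on a handful of cells in the library as a whole, although it did to a larger extent in the stromal cluster, as given below.

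Over all barcodes the level of Fam20c was highest in the stefin and Ccl4 cells, an order that rests on the OVX cells. In OVX these clusters held 58.2% and 21.6% of the Fam20c UMIs, and in sham 11.4% and 9.95%. Over both conditions the level was 131 CPM (120 to 142) in the stefin cluster and 106 CPM (91.8 to 121) in the Ccl4 cluster, against 28.8 CPM (21.9 to 37.1) in the Retnlg cluster and 27.5 CPM (22.3 to 33.6) in the cycling cluster. The small Arg1 cluster, whose leading genes include Arg1, Ppbp and Pf4, stood at 84.2 CPM (62.3 to 111), and the stromal cluster at 43.3 CPM (38.0 to 49.2). The intervals of the stefin and Ccl4 clusters overlap slightly, and those of the Retnlg and cycling clusters widely. Overlap alone does not decide an order, and no interval for the ratio inside a pair was computed.

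Cells of these clusters differ in depth, and a deep cell shows a rare RNA more often, so each cell was thinned to 1000 UMIs before shares of cells were compared, and 171 shallower cells were left out. A Fam20c UMI was then found in 12.0% of stefin cells (9.44% to 15.02%) and 8.44% of Ccl4 cells (6.27% to 11.1%), but in 1.99% of Retnlg cells (0.912% to 3.74%) and 1.70% of cycling cells (0.628% to 3.67%). The stromal cluster changed place by this measure, with 51.9% of cells positive at a median depth of 19996.5 UMIs and 3.54% (1.43% to 7.15%) once thinned. In the Arg1 cluster 35.5% of cells were positive unthinned and 1 of 61 cells after thinning.

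Free RNA can place a few UMIs in any barcode, so the levels of marker RNAs outside their own cells are given beside those of Fam20c, and its part in the Fam20c counts was not tested. S100a8 and S100a9, the calprotectin subunits that dominate the neutrophil-like clusters, stood in the stromal cluster at 0.677% and 0.716% of their level there, and Ptprc (CD45, the leukocyte surface phosphatase) at 1.08%. Fam20c stood at 55.9% over all barcodes. In the other direction, the matrix genes Dcn and Prg4 stood in the neutrophil-like clusters at 0.556% and 0.360% of their stromal level. For Fam20c the direction turned with the condition, at 119 CPM in neutrophil-like and 60.3 CPM in stromal cells in OVX, but 24.4 and 36.2 CPM in sham.

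Fam20c was higher in OVX than in sham cells over the whole library, which is the value that chose the gene. The 1059 OVX cells held 843 Fam20c UMIs (108 CPM, 101 to 116) and the 981 sham cells held 201 (31.1 CPM, 27.0 to 35.7), a ratio of 3.48 (2.98 to 4.07). Of 1456 genes that reached 100 CPM in OVX or in sham, 1.92% had a ratio of 2 or more, and Fam20c, which passed this limit only through its OVX level, ranked 5. Since this ratio chose the gene, nothing is read from the rank. The genes just above it were Cd74 (6.62), the invariant chain of MHC class II, Wfdc21 (5.15) and the cystatin gene Stfa2 (3.72), and those just below were Asprv1 (3.46), the death receptor gene Fas (3.39) and Stfa2l1 (3.23). The place depends on the limit, since Fam20c ranked 13 of 2833 genes at 50 CPM or more and 22 of 5255 at 20 CPM or more.

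Within the stages the difference had the same direction in all 4 neutrophil-like clusters and differed in size, as the plot of levels by cluster shows. In the Ccl4 cluster Fam20c stood at 158 CPM (136 to 183; 182 UMIs in 316 cells) in OVX and 26.6 CPM (16.3 to 41.1; 20 UMIs in 272 cells) in sham, a ratio of 5.95 (3.74 to 9.97). In the Retnlg cluster the levels were 72.6 CPM (36 UMIs in 99 cells) and 16.3 CPM (22 UMIs in 311 cells), a ratio of 4.46 (2.55 to 7.96). The stefin cluster, which took up 43.5% of the OVX but 11.4% of the sham cells, had 141 CPM (491 UMIs) in OVX and 47.6 CPM (23 UMIs) in sham, a ratio of 2.95 (1.94 to 4.70). The cycling cluster had the smallest ratio of the 4, 1.61 (1.04 to 2.50), at 37.6 CPM and 23.3 CPM, and its interval does not overlap that of the Ccl4 or the Retnlg cluster. Among cells whose hashtag held at least 95% of hashtag UMIs, however, it was 3.26 in the cycling and 2.93 in the stefin cluster, so this order depends on the assignment. All 4 together gave 754 UMIs at 119 CPM in OVX and 109 UMIs at 24.4 CPM in sham, a ratio of 4.89 (3.99 to 6.03).

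**Figure D1:**
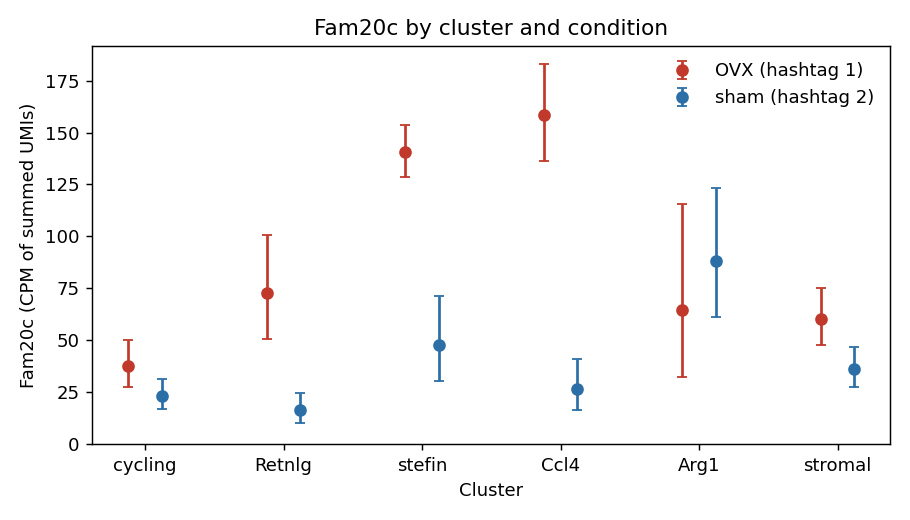
Fam20c level (CPM of summed UMIs, vertical axis) in each of the 6 clusters (horizontal axis) for OVX and sham cells, with exact Poisson 95% intervals that cover counting error only. OVX lies above sham in the cycling, Retnlg, stefin, Ccl4 and stromal clusters, most widely in the Ccl4 cluster (158 and 26.6 CPM), and below it in the Arg1 cluster, where the intervals overlap.

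Outside the neutrophil-like clusters the picture was less clear. In the Arg1 cluster sham was higher by value, at 88.4 CPM (61.2 to 124; 34 UMIs in 41 cells) against 64.6 CPM (32.3 to 116; 11 UMIs in 16 cells), and the interval of the ratio, 0.334 to 1.48 around 0.731, includes 1. In the stromal cluster the ratio was 1.67 (1.17 to 2.38), from 78 UMIs in 38 OVX cells and 58 UMIs in 54 sham cells, but 1 OVX cell gave 24 of the 78. Without the 5 cells with the most Fam20c, of which 3 are stromal, it was 1.30, and among stromal cells whose hashtag held at least 95% of hashtag UMIs it was 0.721. No direction is drawn for the stromal cells.

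The order of the clusters differed between the conditions. In OVX the Ccl4 and stefin cells stood highest, the Retnlg cells lower and the cycling cells lowest. In sham the Arg1 and stefin clusters stood highest by value, with overlapping intervals. The Ccl4 (26.6 CPM, 16.3 to 41.1), cycling (23.3 CPM, 16.9 to 31.3) and Retnlg (16.3 CPM, 10.2 to 24.7) clusters had overlapping intervals too. The stefin interval in sham (30.2 to 71.5 CPM) overlaps that of the Ccl4 cluster and, slightly, that of the cycling cluster. Its place above them is given by value only, since overlap alone does not decide an order. The step from cycling to Ccl4 cells was therefore seen in OVX, from 37.6 to 158 CPM, and was not resolved in sham at this depth. The stefin cluster held 58.2% of all OVX Fam20c UMIs and 11.4% of all sham ones, whereas the sham molecules lay mainly in the stromal (28.9%), cycling (21.9%) and Arg1 (16.9%) clusters.

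The conditions also differ in their mix of clusters, which alone can shift the level of a gene that differs between clusters. With the sham levels of each cluster and the OVX mix of clusters the sham level would be 37.8 CPM, a ratio of 1.22 to the sham level of 31.1 CPM. With the mix of clusters held at that of sham, the OVX level was 73.9 CPM, a ratio of 2.38 (2.00 to 2.82). With equal weight per cell this ratio was 3.87. Holding quintiles of a maturity score, described below, in place of the clusters gave 4.23. That value covers only neutrophil-like cells of at least 1000 UMIs, without the stromal and Arg1 clusters, so it is not comparable with 2.38. The ratio of all neutrophil-like cells with nothing held was 4.89. The ratio from the mix alone was thus 1.22 and the overall ratio 3.48, and the part of the mix in the overall ratio was not tested.

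Compared with the other genes of each cluster, Fam20c stood out most in the Retnlg and Ccl4 cells. Among genes with at least 20 UMIs it ranked 7 of 4792 by ratio in the Retnlg cluster, where 3.92% of genes had a ratio of 2 or more, and 28 of 5172 in the Ccl4 cluster, where 8.31% did. In the stefin cluster 12.0% of 6512 genes reached 2, so the ratio of 2.95 put Fam20c at rank 442, and with 23 sham UMIs its interval was wide. In the cycling cluster (2.65% of 7552 genes at 2 or more) and the stromal cluster (2.95% of 8496) Fam20c was itself below 2, at ranks 430 and 484. In the Arg1 cluster, where 5.84% of 3782 genes reached 2, it ranked 2806. Since the gene was selected on this contrast, these places describe it and support nothing further.

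**Figure D2:**
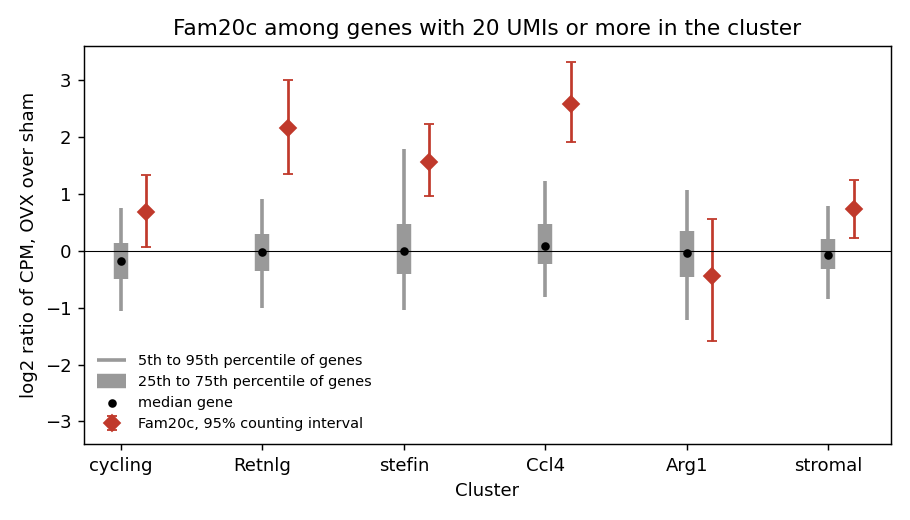
log2 ratio of CPM (OVX over sham, vertical axis) of Fam20c with its 95% counting interval in each cluster (horizontal axis), beside the median, middle and 5 to 95 percentile range of all genes with 20 UMIs or more there. Fam20c lies above the 95 percentile in the Retnlg cluster (2.16 against 0.92) and the Ccl4 cluster (2.57 against 1.24), and below it in the stefin cluster (1.56 against 1.79), the cycling cluster and the stromal cluster.

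The difference was seen in shallow and deep cells alike. The neutrophil-like cells were divided by their total UMIs into 5 bins, and in each the share of cells with Fam20c was higher in OVX, although the intervals overlapped in the shallowest bin, at 7.29% (2.98% to 14.4%) and 0.699% (0.0177% to 3.84%). In cells of 3000 to 6000 UMIs it was 35.8% in OVX (313 cells, 30.5% to 41.4%) and 6.44% in sham (295 cells, 3.92% to 9.88%). In cells of 12000 UMIs or more it was 66.4% of 116 OVX cells and 29.0% of 69 sham cells. In CPM the OVX level lay between 103 and 130 in all 5 bins, and the sham level between 7.33 (1 UMI) and 34.0, so every OVX value lay above every sham value. The bins pool the 4 clusters, so they hold depth but not cluster. The mix within a bin can differ between conditions, since stefin cells had a median of 6108 UMIs in OVX and 2074.5 in sham.

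**Figure D3:**
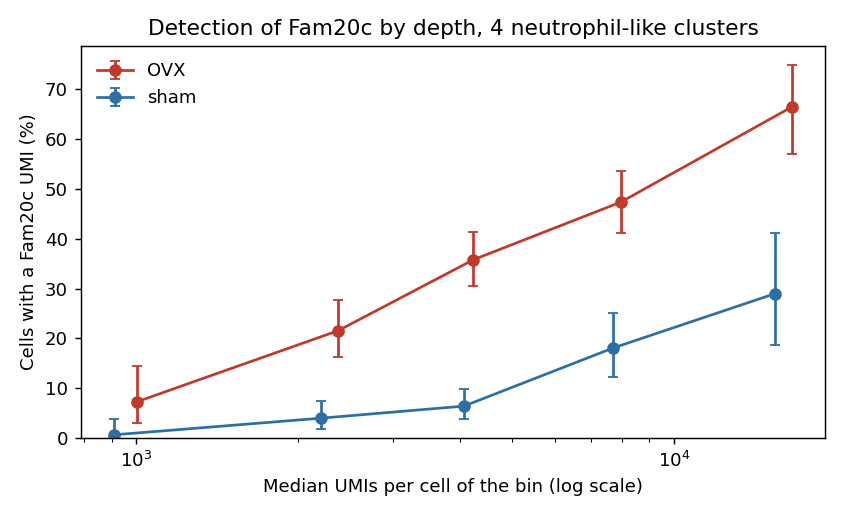
Share of neutrophil-like cells with a Fam20c UMI (vertical axis, percent, with Clopper-Pearson 95% intervals) against the median UMIs per cell of 5 depth bins (horizontal axis, log scale), for OVX and sham. Both shares grow with depth, and OVX lies above sham in every bin, with overlapping intervals in the shallowest, at 66.4% and 29.0% in the deepest.

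The share of cells that showed Fam20c also differed at equal depth, where a gene of this level gives a cell at most a few UMIs, so that the share follows the level. After thinning to 1000 UMIs 103 of 957 neutrophil-like cells in OVX still held it (10.8%, 8.87% to 12.9%), against 15 of 801 in sham (1.87%, 1.05% to 3.07%). In Ccl4 cells the thinned shares were 13.1% (9.47% to 17.5%) in OVX and 2.50% (0.923% to 5.36%) in sham. In stefin cells they were 12.9% (9.89% to 16.3%) and 4.76% (1.31% to 11.7%), and in Retnlg cells 5.21% (1.71% to 11.7%) and 1.00% (0.207% to 2.89%). The intervals of the shares overlap in the stefin and Retnlg cells. The ratio of shares in stefin cells, 2.70, has an interval of 0.999 to 10.3 that includes 1. In Retnlg cells the ratio of shares was 5.21 (1.01 to 33.5), resting on 5 positive cells in OVX and 3 in sham. In the cycling cluster 2 of 120 OVX and 2 of 177 sham cells remained positive, from which no difference can be read. With 2000 UMIs per cell, which left out 155 OVX and 219 sham cells, a UMI was found in 20.4% of the 850 OVX cells left (17.7% to 23.2%), against 4.20% in 667 sham cells (2.81% to 6.01%).

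The spread of the molecules over cells was near random in the stefin OVX cells, with some excess in the Ccl4 OVX cells. If Fam20c molecules fell on the thinned OVX cells at random, the mean of 0.264 UMIs per cell would give 23.2% positive cells, against the 20.4% counted. The variance of the counts was 1.29 times their mean in these OVX cells and 1.20 times in the sham cells. In the stefin OVX cells 23.4% were positive against 25.2% at random, and the variance of the counts was 1.11 times their mean. In the Ccl4 OVX cells these were 24.6% and 29.1%, with a variance 1.45 times the mean. In the Retnlg OVX cells the variance was 1.64 times the mean, but 13 UMIs in 9 positive cells are too few to read an excess from. Per positive cell the mean was 1.30 UMIs in OVX and 1.14 in sham. A variance near the mean is what thinly sampled RNA gives in cells of one level, but at means this low uneven cells can give it too. These counts therefore neither divide the stefin OVX cells into carriers and non-carriers nor show that they share one level.

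The maturity of the neutrophil-like cells was also set on one continuous scale, a score that falls with 12 granule genes (among them Ltf and Camp) and rises with 8 genes of mature neutrophils, computed on thinned cells and cut into quintiles. In OVX the level rose from 60.4 CPM (48.0 to 74.9) in the least mature quintile to 101 CPM in the next and 163 CPM (144 to 184) in the middle one, and stood at 148 CPM (126 to 172) and 127 CPM (103 to 155) in the last ones. In sham the levels were 25.5, 37.7, 21.8, 9.81 and 20.6 CPM from the least to the most mature, resting on 45, 31, 18, 5 and 10 UMIs. The sham intervals of quintile 2 (25.6 to 53.6 CPM) and quintile 4 (3.19 to 22.9 CPM) do not overlap, so the sham level was not flat either. The ratio was 2.37 (1.63 to 3.49) in the first quintile, 7.48 (4.64 to 12.8) in the middle one and 15.1 (6.32 to 47.0) in the next, where the sham value rests on those 5 UMIs. In the most mature quintile it was 6.17 (3.22 to 13.3), larger by value than in the first. The intervals of the middle quintile and the one after it lie above that of the first. The interval of the most mature quintile overlaps that of the first slightly, and overlap alone does not decide whether their ratios differ.

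**Figure D4:**
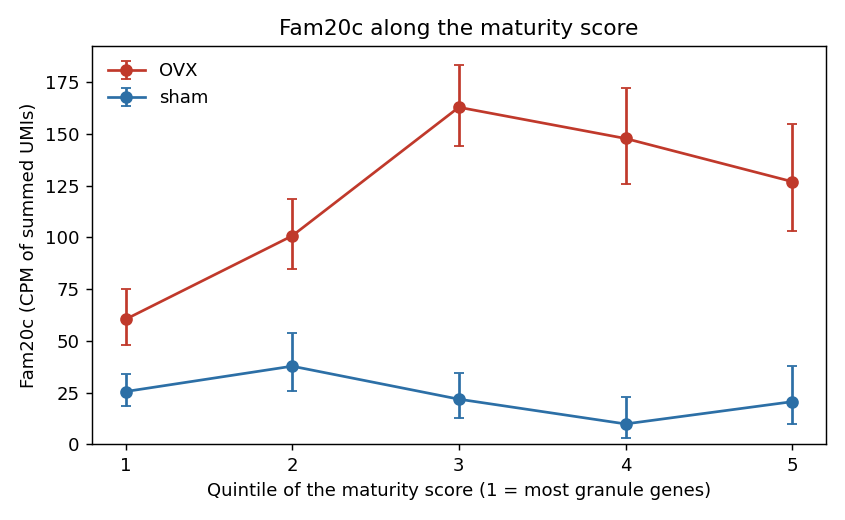
Fam20c level (CPM, vertical axis, Poisson 95% intervals) in OVX and sham neutrophil-like cells by quintile of the maturity score (horizontal axis, from most granule RNA to most mature). OVX rises from 60.4 to 163 CPM up to the middle quintile. Sham is highest in quintile 2 (37.7 CPM) and lowest in quintile 4 (9.81 CPM, from 5 UMIs).

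Hashtag assignment was read beside these values. Sham cells with Fam20c carried a median of 2.00% hashtag 1 among their hashtag UMIs and sham cells without it 2.20% (quartiles 1.26% to 2.71% and 1.37% to 3.10%). The part of hashtag assignment in the Fam20c counts was not tested. OVX cells with Fam20c carried 92.4% hashtag 1 and those without it 89.1%. Restricting both conditions to cells whose hashtag held at least 95% of hashtag UMIs left 219 OVX and 952 sham cells and gave a ratio of 4.19 over all cells.

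Few other kinases of the family had enough UMIs for a ratio. Of the 13 secretory pathway kinase genes on the list, 11 had a UMI, and 5 others had enough UMIs (20 in OVX and sham together) for a ratio, none of them at 2 or more, against 2.86% of all 11316 genes with 20 UMIs. Their median ratio was 0.909, that of all genes 0.842. With 5 genes such a count says nothing about the family. Fam20b, the proteoglycan kinase, had 32.1 CPM in OVX and 35.3 CPM in sham, a ratio of 0.909, and lay between 23.4 and 31.0 CPM in the neutrophil-like clusters. Gask1b fell below that limit, with 11 UMIs in OVX and 1 in sham. Fam20a, the partner that assists Fam20c, had 1 UMI in the whole library. Fjx1 was counted almost only in the stromal cluster, at 41.8 CPM.

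The known targets of Fam20c gave few values, since most belong to mineralizing tissue. Of 21 listed substrates 12 had a UMI and 4 had enough for a ratio, with none at 2 or more and a median of 0.804, beside 2.86% at 2 or more and a median of 0.842 over all genes. With 4 genes such a count says nothing about the list. Spp1 (osteopontin) was found in every cluster, from 421 CPM in the cycling to 1628 CPM in the stromal cluster, and had 634 CPM in OVX and 811 CPM in sham, a ratio of 0.782. By cluster the Spp1 ratio went both ways, from 0.323 (0.287 to 0.363) in the Ccl4 and 0.588 in the stefin cluster to 1.20 in the stromal and 1.93 (1.55 to 2.40) in the Arg1 cluster. P4hb, a protein disulfide isomerase of the endoplasmic reticulum, had a ratio of 0.600 (135 and 225 CPM), Ero1l, the oxidase that works with it, 0.827, and the calcium sensor Stim1 1.25. Of the bone substrates, Ibsp was found in 13 cells and Dmp1 and Mepe in 1 cell each, and Fgf23 in 1. On the list of osteoblast and osteocyte markers Bglap, Phex and Sost had no UMI, and the list summed to between 28.7 and 49.5 CPM in the neutrophil-like clusters, most of it Runx2.

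Genes of phosphate and mineral handling were mainly stromal. Of 11 listed genes 7 had a UMI and 6 gave a ratio, none at 2 or more, with a median of 0.741, again beside 2.86% and 0.842 over all genes, too few to tell the list from the rest. Slc20a1, a phosphate importer, had 561 CPM in the stromal cluster and between 14.1 and 27.8 CPM in the neutrophil-like clusters, and Ank, which exports pyrophosphate precursors, Enpp1, which makes pyrophosphate, the carrier Slc20a2 and the receptor Fgfr1 were likewise stromal, at 208, 109, 46.6 and 215 CPM there. Xpr1, the phosphate exporter, was the exception, with 58.8 to 117 CPM in the neutrophil-like clusters and 23.6 CPM in the stromal cluster, and a ratio of 1.21. Within the stromal cluster the ratios of the mainly stromal genes went both ways. They were 0.854 for Ank, 0.861 for Slc20a1, 1.02 for Slc20a2, 1.08 for Fgfr1 and 1.32 for Enpp1.

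Fam20c resides in the Golgi, and all 20 listed residents of that organelle had a UMI and a ratio, with a median of 0.927 beside 0.842 over all genes. St3gal4, a sialyltransferase, was the 1 gene of 20 at 2 or more, where 2.86% of all genes reached 2, with 49.4 CPM in OVX and 20.9 CPM in sham (2.36), and it was also highest in the Ccl4 (71.5 CPM) and stefin (54.5 CPM) clusters. Furin, the proprotein convertase that cleaves FGF23 among other proteins, had a ratio of 1.12, the mannosidase Man2a1 1.34, B4galt1 1.05 and Tmed10 0.783, and Mgat2 was lowest at 0.502.

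The ratios of the genes beside Fam20c on chromosome 5 lay below 1 by value, as did the median of all genes with 20 UMIs, 0.842. Only the interval of Pdgfa leaves out 1. Upstream, Zfp68 had 7.44 CPM in OVX and 10.7 CPM in sham (0.697, 0.483 to 1.00), and A430033K04Rik had 3 and 8 UMIs (0.311, 0.0531 to 1.29). Downstream, Gm5294, 10003 bases away, had 2 and 3 UMIs (0.552, 0.0461 to 4.82). Pdgfa, a growth factor gene 165937 bases away, had 50.5 CPM in OVX and 88.4 CPM in sham, a ratio of 0.572 (0.502 to 0.651).

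Genes found in the same cells as Fam20c were sought at equal depth, by counting the thinned cells that held both and dividing by the number expected if both were independent within each cluster and condition. On average 129 of 1907 cells held Fam20c per thinning, and over 2176 genes the quotient had a median of 1.01 and lay between 0.812 and 1.20 for the middle 90% of genes. Among the 10 highest values were those for Itgb1 (1.61, 0.804 to 2.89), the integrin beta 1 chain, Khdc4 (1.57), Lrg1 (1.49, 0.907 to 2.30), a glycoprotein of neutrophil granules, the transcription factor gene Tcf7l2 (1.46, 0.943 to 2.15), Tnf (1.42), the lipase genes Lipg (1.42) and Lipa (1.42), and Atrx (1.39). The lowest were for Far1 (0.635), Zcchc7 (0.639), Srpr (0.645), Rab20 (0.666) and the granule gene Camp (0.670, 0.291 to 1.31). The interval of every one of the 10 highest and 5 lowest genes includes 1, and these sparse counts give no finding about a partner of Fam20c inside a stage.

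**Figure D5:**
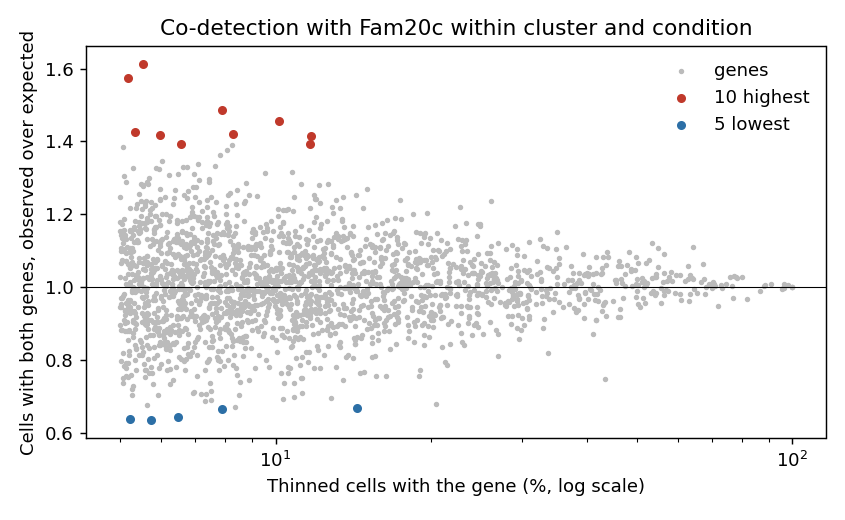
Cells with both Fam20c and another gene, observed over expected within cluster and condition (vertical axis), against the share of thinned cells with that gene (horizontal axis, percent, log scale). The spread narrows toward 1 for frequent genes, and the 10 highest (Itgb1 at 1.61) and 5 lowest (Far1 at 0.635) lie among the rarer ones.

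Without holding cluster and condition, the 10 highest quotients included those of Lrg1 (1.96), Lipg (1.91), Tcf7l2 (1.90), Enah (1.89), Wfdc17 (1.84), Il13ra1 (1.83), Asprv1 (1.75), Dab2 (1.73) and Ctsc (1.73). Most of them were themselves higher in OVX, with ratios of 21.9 for Wfdc17 and 2.44 for Lrg1. Inside cluster and condition the same genes stood at 1.11 (Wfdc17) to 1.49 (Lrg1), so the quotients fell toward 1 once cluster and condition were held. The stefin genes frequent enough to be counted stood within the strata at 0.997 (Cstdc5), 1.00 (Stfa2), 1.04 (Cstdc4), 1.09 (Stfa2l1) and 1.13 (Stfa3).

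Levels were compared with those of Fam20c over the 11 groups of cluster and condition with at least 30 cells. The comparison covered 7884 genes at 20 CPM or more in a group. By Pearson r of log2(CPM + 1), the most alike were Hdac7, a histone deacetylase gene (0.895), Myadm (0.885) and Ddi2, a ubiquitin-dependent protease gene (0.832). Next came Egln2, an oxygen-sensing prolyl hydroxylase gene (0.796), and C9orf72 (0.793). The groups come from 1 library and 2 pools, so these values have no p and describe likeness only. Myadm had 146 CPM in stefin OVX cells and 76.7 CPM in stefin sham cells, 127 and 55.9 CPM in Ccl4 cells and 67.6 and 50.3 CPM in cycling cells, and Hdac7 had 45.3 and 24.9 CPM, 40.9 and 13.3 CPM, and 26.7 and 19.1 CPM in the same order. In the stromal cells Myadm was lower in OVX, at 54.1 against 71.1 CPM, and Hdac7 had 24.7 and 19.96 CPM. As these genes were picked for likeness over the same groups, their shared pattern is no result.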

How the data were processed

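The authors aligned the reads to mm10 with Cell Ranger (6.0.0 in the matrix header, 6.0.1 in the submitters' processing notes) and deposited whole-number UMI counts per gene and hashtag for barcodes called as cells. No normalization had been applied. The hashtag library was not used on its own.

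Hashtags were classified with HTODemux (Seurat 5.3.0, R 4.3.3, quantile 0.99). Cells were clustered with scanpy 1.11.5 and Louvain (igraph 0.11.9): 10000 per cell, log, 2000 variable genes, 30 components, 15 neighbors, resolution 0.3. No doublet was removed, since Scrublet marked 1 barcode. CPM is summed UMIs per 1000000. Intervals are 95% (exact Poisson, Clopper-Pearson, conditional for ratios). Co-detection used 20 thinnings to 1000 UMIs and genes in at least 5% of thinned cells. Since each condition is 1 pool, no p-value was computed. Scripts were tested on simulated data.

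Fam20c, the gene lists and the clustering were chosen with earlier results of these data known, and the depth bins and thinning to 2000 UMIs after seeing the values. Named genes are Fam20c, the measured list members (at 20 CPM or more in a cluster, with Fam20a and Fam20b), the 10 highest and 5 lowest in co-detection, the 5 most alike over groups, the 2 nearest measured coding genes on each side and those within 3 ranks overall. Genes outside this rule (the leading genes of clusters, low list members, and those highest without strata) were named after their values were seen. A few genes that the rule names are not reported here.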

Additional observations from a re-analysis of the deposited data

Results flagged for a closer look

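The 78 barcodes above the cutoff for both hashtags entered no comparison of OVX with sham, and Fam20c stood in them at 101 CPM (74.0 to 134; 47 UMIs), above the 31.1 CPM of the sham cells. The 231 barcodes below both cutoffs held 96 Fam20c UMIs (32.5 CPM), of which 91 lay in the stromal cluster.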

How the results depend on the processing

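Depth and the single pool per condition set the limits: sham values inside a neutrophil-like cluster rest on 20 to 44 UMIs. Of 64 recomputed ratios within clusters, 53 were above 1. The rest were those of the Arg1 cluster, whose main ratio was 0.731, and the stromal value of 0.721 with hashtags at 95% or more. In the neutrophil-like clusters every recomputed ratio was above 1. Among 139 recomputed main values, 98 were labelled the same, 40 moved and 1 reversed. For levels and ratios, moved means outside the counting interval of the main value. The percentiles among genes and the count of shared genes in co-detection have no such interval, and their labels rest on other limits.

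With equal weight per cell the ratio was 5.10 over all cells, 4.93 in the stefin cluster and 3.87 with the cluster mix held. With hashtags at 95% or more, chosen after seeing the data, it was 4.19 over all cells, 12.7 in the Retnlg cluster, 3.26 in the cycling cluster, 3.56 with the mix held, and reversed to 0.721 in the stromal cluster. By quintile of maturity the ratio in neutrophil-like cells was 2.37, 2.67, 7.48, 15.1 and 6.17, and 4.23 with the quintiles held. With clusters made without genes at 2-fold the ratio with the mix held was 2.86. In that clustering the Retnlg, stefin and Ccl4 clusters were all matched best by the same cluster of 1428 cells. The value of 2.86 therefore does not hold these stages apart, and no ratio within them is left.

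The level in the Arg1 cluster was 56.3 CPM with 1000 variable genes, 41.0 with 8 clusters and 60.9 without 2-fold genes, which gave 34.1 in the cycling cluster. That of the Ccl4 cluster was 79.9 with 1000 variable genes and 83.8 with Leiden, which gave 148 in the stefin cluster. That of the Retnlg cluster was 53.0 with 30 neighbors and 39.9 with 8 clusters. In 8 of 30 cases a reclustering had no counterpart sharing at least 0.5 of the joint cells, and no value is given, which is a limit set after seeing the data. Splitting the cycling cluster set apart 30 cells with no Mki67 and no Fam20c UMI, so only the other part gave a ratio.

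The ratio of thinned shares in Ccl4 cells (5.23) was 18.9 at 500 UMIs and 4.19 to 15.3 over 20 other seeds, and in stefin cells (2.70) 1.58 to 10.6. Of the 10 genes highest in co-detection, only 3 passed the filter with genes in at least 10% of cells, and likewise at 500 UMIs. Those 3 stayed among the highest in both settings. All 10 passed the filter without strata, where 3 stayed among the highest, and at 2000 UMIs, where 0 did.

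The percentile of Fam20c by ratio was 96.6 (Retnlg), 88.1 (cycling), 96.2 (stefin) and 87.9 (stromal) among genes with at least 1 UMI in each condition, 99.8 (Ccl4), 96.8 (cycling), 96.3 (stefin) and 97.0 (stromal) among genes with 50 UMIs, and 28.5 (Arg1) and 96.1 (cycling) under the hashtag share rule. The cause of these moves was not tested. No paired analysis was possible because each condition is 1 pool.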
